A study of Homo sapiens with 6 samples.

Results

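The IL-10 family genes described here are 4 cytokines, IL10, IL19, IL20 and IL24, and the receptor chains IL10RA and IL10RB. These 6 genes were taken by symbol from the 63677 genes of the deposited count table on primary chromosomes only. The RNA came from the established human myeloma cell line RPMI8226 after 6 hr with GST-PTR1 or with the control protein GST, each at 100 nM. GST is glutathione-S-transferase, and GST-PTR1 joins it to the PTR1 domain of HAPLN1, a protein of the extracellular matrix. Both proteins were made in Escherichia coli and purified on glutathione-agarose, and 1 cell line was profiled. There were 3 biological replicates per treatment, 6 libraries in all. Libraries are named by their totals, the first being the smallest of its treatment, and they were compared without pairing. In bulk RNA, a smaller share of expressing cells and less RNA per cell cannot be told apart.

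IL-10 is a secreted homodimer that limits inflammatory responses of myeloid and lymphoid cells. It binds a receptor made of IL10RA, which gives ligand specificity, and IL10RB, a chain shared with the receptors for IL-22, IL-26 and the type III interferons, and signals through JAK1, TYK2 and STAT3. IL-19, IL-20 and IL-24 are encoded beside IL10 on chromosome 1, but bind other receptor chains of the same family, and are best known in skin and other epithelia. Plasma cells and their B cell precursors can make IL-10, and myeloma cells can respond to it.

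The 4 cytokine genes lie in a row on chromosome 1 of GRCh37. IL10 (ENSG00000136634, chr1:206940947-206945839) is on the minus strand. IL19 (ENSG00000142224, chr1:206972215-207016324), IL20 (ENSG00000162891, chr1:207038699-207042568) and IL24 (ENSG00000162892, chr1:207070788-207077484) are on the plus strand, with starts 26.4, 92.9 and 124.9 kb from the start of IL10. IL10RA (ENSG00000110324, chr11:117857063-117872196) and IL10RB (ENSG00000243646, chr21:34638663-34669539) are on the plus strand of other chromosomes. Reads were counted over all annotated exons of each gene, untranslated parts included.

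Promoter sequence is shown for the members that changed most, for IL24 and for the receptors, because the cluster genes responded unequally. RefSeq windows on GRCh38.p14 were found for 6 of the 6 genes, 10 windows in all since some genes have several annotated starts, and each holds the 250 bases before a start, written 5′ to 3′ on the strand of the gene. Capitals mark matches, on either strand, to GGGNNNNNCC (NF-κB type), TTCNNNGAA (STAT type), TGANTCA (AP-1 type) or TATAAA, a core promoter element. The windows are IL10 chr1:206772495-206772744 on the minus strand, IL19 chr1:206834099-206834348, IL24 chr1:206897193-206897442, IL10RA chr11:117989695-117989944 and IL10RB chr21:33266117-33266366, the last 4 on the plus strand.
IL10: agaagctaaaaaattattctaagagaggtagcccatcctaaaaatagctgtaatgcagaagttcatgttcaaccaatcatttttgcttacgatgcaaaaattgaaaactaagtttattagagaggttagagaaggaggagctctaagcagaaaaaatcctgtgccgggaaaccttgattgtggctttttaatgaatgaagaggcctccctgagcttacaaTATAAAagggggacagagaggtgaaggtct
IL19: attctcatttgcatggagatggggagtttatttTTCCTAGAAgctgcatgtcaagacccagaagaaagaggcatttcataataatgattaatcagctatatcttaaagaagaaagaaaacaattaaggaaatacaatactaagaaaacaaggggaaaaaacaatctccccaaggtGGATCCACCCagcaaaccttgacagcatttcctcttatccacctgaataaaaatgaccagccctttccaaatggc
IL24: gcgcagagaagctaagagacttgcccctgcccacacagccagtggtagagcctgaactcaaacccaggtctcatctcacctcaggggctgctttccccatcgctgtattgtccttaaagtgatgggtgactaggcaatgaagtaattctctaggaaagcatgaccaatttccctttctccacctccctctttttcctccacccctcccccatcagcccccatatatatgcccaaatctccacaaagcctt
IL10RA: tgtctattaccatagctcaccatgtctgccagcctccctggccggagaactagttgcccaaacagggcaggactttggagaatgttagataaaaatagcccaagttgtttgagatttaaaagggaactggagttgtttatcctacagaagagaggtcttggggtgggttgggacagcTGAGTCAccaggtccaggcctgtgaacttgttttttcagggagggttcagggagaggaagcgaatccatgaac
IL10RB: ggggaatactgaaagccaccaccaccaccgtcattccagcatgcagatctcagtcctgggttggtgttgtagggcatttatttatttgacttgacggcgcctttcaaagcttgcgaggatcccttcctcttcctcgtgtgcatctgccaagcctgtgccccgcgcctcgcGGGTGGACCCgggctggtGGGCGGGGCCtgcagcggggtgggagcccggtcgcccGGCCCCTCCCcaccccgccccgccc

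The IL10 window held TATAAA from 30 to 25 bases before the start and no match to the other 3 motifs. The IL19 window held 1 STAT type match and 1 NF-κB type match. It belongs to 1 of 2 annotated IL19 starts, farther from IL10 than the GRCh37 start given above. Sequence before that GRCh37 start is not shown. The IL24 window held none of the 4 motifs. The IL10RA window held 1 AP-1 type match, and the IL10RB window held 4 NF-κB type matches, 2 of which are the strands of the same 10 bases. Over 34943 RefSeq windows of 250 bases, 54.4% held an NF-κB type match, 6.56% a STAT type match, 6.59% an AP-1 type match and 10.8% TATAAA. A further annotated IL10 start and a further IL19 start point away from each other, and their windows share a single AP-1 type match at chr1:206770666-206770672, 69 to 63 bases before the IL10 start and 107 to 101 bases before the IL19 start. Such matches are letters in a window, and binding was not measured.

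The libraries held 15202503 to 23453473 counts with GST and 22874133 to 44688737 with GST-PTR1, and 3 counts, taken as the limit of detection, were worth 0.0671 to 0.197 CPM, the count scaled to the library total. Of 16926 genes tested with edgeR's quasi-likelihood test, 9.15% were higher and 11.4% lower with GST-PTR1 (the threshold, here and below, is an adjusted p of 0.05), and 3.68% were at least 2-fold higher. With library totals in place of edgeR's TMM factors the split was 927 higher and 3788 lower instead of 1549 and 1937, and the median over all genes tested moved by -0.20 on the log2 scale, from 0.01 to -0.19. Plasma cell markers were abundant in every library (summed RPKM, which is counts scaled to exon length and library total, of 2007 to 2459 with GST and 1674 to 2058 with GST-PTR1). Of these 10 markers, PRDM1, IRF4 and SLAMF7 were higher, and SDC1, TNFRSF17 and XBP1 were lower (log2 fold changes of -1.03, -1.41 and -0.47). The 5 T cell markers in the table had at most 3 counts each in every library (summed RPKM up to 0.0667 with GST and 0.0464 with GST-PTR1). Monocyte and macrophage markers summed to 0.216 to 0.458 RPKM with GST and 0.143 to 0.318 with GST-PTR1. CD14 had 8, 11 and 7 counts with GST and 11, 6 and 15 with GST-PTR1 (log2 fold change -0.21, adjusted p = 0.748, edgeR). CSF1R had 14, 3 and 7 counts with GST and 5, 2 and 4 with GST-PTR1. LYZ and MARCO were each at 0 in 5 libraries and at 1 count in 1, and CD163 and FCN1 were at 0 in all libraries. Stromal markers summed to at most 0.0581 RPKM with GST and 0.0401 with GST-PTR1. Among epithelial markers KRT18 was lower (29.1 to 16.1 RPKM), EPCAM was at 30.2 RPKM with GST and at 24.1 RPKM in the GST-PTR1 libraries, and all 6 summed to 57.9 to 63.3 RPKM with GST and 39.6 to 43 with GST-PTR1. The part of these differences in the results below was not tested.

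IL10 and IL19 rose with GST-PTR1, IL10RA did not pass the test, and IL10RB passed it under 1 scaling only. Of the 6, 4 had enough counts for edgeR's filter, and IL20 and IL24 did not. Of those 4, 2 were called higher and 0 lower in edgeR, in DESeq2 and in limma's voom alike, and 1, IL10RB, was lower at an unadjusted p under 0.05. In edgeR 9.15% of all genes tested were higher and 11.4% lower, and 4 genes are too few to read against these shares. GST and GST-PTR1 libraries did not overlap in IL10, IL19 and IL24, all higher with GST-PTR1, nor in IL10RB, lower with GST-PTR1. Over all genes tested, 8.71% did not overlap with GST-PTR1 higher and 34.4% with GST-PTR1 lower, in RPKM on library totals. A lower value without overlap was thus common on that scale.

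**Figure D1:**
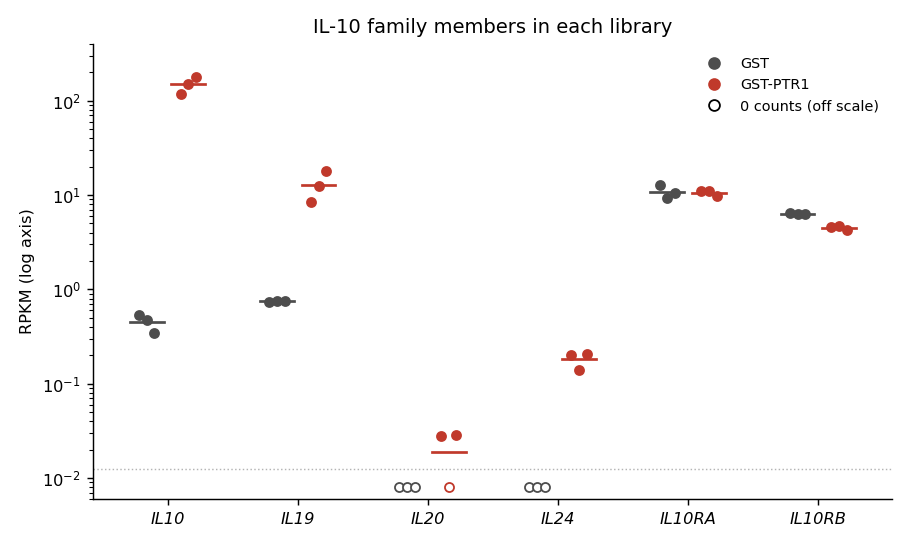
RPKM (counts scaled to exon length and library total, log axis) of the 6 genes in each library, with points for the 3 GST (gray) and 3 GST-PTR1 (red) libraries and a line at the mean, and open symbols below the dotted line for 0 counts. IL10 moves from at most 0.532 RPKM to at least 119, IL19 moves less, IL24 has counts with GST-PTR1 only, and the receptor genes lie between 4.26 and 12.9 RPKM.

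With GST, IL10 had 16, 19 and 16 counts, and with GST-PTR1 it had 5401, 8639 and 15631. Per exon length and library total, these are 0.532, 0.478 and 0.345 RPKM with GST and 119, 151 and 177 RPKM with GST-PTR1. Every GST library was low and every GST-PTR1 library high, with no overlap. The mean rose from 0.452 ± 0.0964 to 149 ± 28.8 RPKM (SD, n = 3 each). On the log2 scale IL10 rose by 8.60 ± 0.25 (SE) with an adjusted p of 4.99e-09 (edgeR's quasi-likelihood test), a 387-fold difference on the TMM scale and the largest log2 fold change among the genes tested in this fit. Among 57773 genes on primary chromosomes, IL10 ranked 16147, 15824 and 17027 by RPKM with GST and 495, 373 and 361 with GST-PTR1. The highest GST-PTR1 library was 1.48 times the lowest, and the highest GST library was 1.54 times the lowest.

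IL19, a cytokine that acts through the IL20RA and IL20RB chains, had 29, 39 and 45 counts with GST and 501, 922 and 2066 with GST-PTR1. The corresponding levels were 0.74, 0.753 and 0.744 RPKM with GST and 8.49, 12.4 and 17.9 RPKM with GST-PTR1. The GST libraries were nearly equal (highest over lowest 1.02), all GST-PTR1 libraries were above them, and the latter spread 2.11-fold among themselves. The mean rose from 0.746 ± 0.00692 to 12.9 ± 4.74 RPKM (SD, n = 3 each). On the log2 scale IL19 rose by 4.33 ± 0.31 (SE), or 20.1-fold, with an adjusted p of 2.64e-06 in the same edgeR test. This was the rank 81 increase of all genes tested. By RPKM, IL19 moved from ranks 15059, 14430 and 14632 with GST to 5804, 4366 and 3278 with GST-PTR1.

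With GST, IL10 was below its neighbor IL19, with an RPKM ratio of IL10 to IL19 of 0.719, 0.635 and 0.464. With GST-PTR1 the ratio was 14.1, 12.2 and 9.86. The order of the 2 cytokines was thus opposite in the treatments, and the ratio differed by 4.32 on the log2 scale. An exact two-sided permutation test gave p = 0.1, the smallest that 3 libraries against 3 allow.

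IL24, a cytokine known for growth arrest of tumor cells when overexpressed, had 0 counts in each GST library and 9, 8 and 18 counts with GST-PTR1. These were 0.199, 0.14 and 0.204 RPKM, low but present in each GST-PTR1 library. The 35 counts of the GST-PTR1 libraries together (95% exact Poisson interval 24.4 to 48.7, counting error only) correspond to 0.363 CPM, at least 7.11-fold higher than the 0.0511 CPM that 3 counts over all GST libraries would give. IL24 did not pass edgeR's filter. In a fit of all 31617 genes with a count in any library, in which 8.25% of genes were called higher, its adjusted p was 3.54e-06 (edgeR). Adjusted p-values of that fit cannot be compared with those of the reported fit. For IL19 they were 2.96e-123 and 2.64e-06, and for IL10RB 0.299 and 0.0925 (edgeR). The exact two-sided permutation test of IL24 RPKM gave p = 0.1, again the smallest possible. IL10 was 600, 1080 and 869 times as high as IL24 per exon length in the GST-PTR1 libraries.

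IL20, a cytokine of keratinocytes and myeloid cells, had 0 counts in each GST library and 1, 0 and 2 counts with GST-PTR1. Its 3 counts in all are at the limit of detection, so no fold is given. In the fit of all genes with a count its adjusted p was 0.424 (edgeR), and the exact permutation test gave p = 0.4. No difference in IL20 was detected at this depth.

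In GST-PTR1 libraries the levels per exon length were therefore in the order IL10, IL19, IL24 and IL20, without overlap between IL10, IL19 and IL24. In GST libraries IL19 was above IL10 in each library, and IL20 and IL24 were at 0 counts.

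IL10RA, the ligand-binding chain, had 1280, 1233 and 1594 counts with GST and 1651, 2086 and 2862 with GST-PTR1. Its levels were 12.9, 9.38 and 10.4 RPKM with GST and 11, 11.1 and 9.78 RPKM with GST-PTR1. The treatments overlapped. The mean was 10.9 ± 1.79 RPKM with GST and 10.6 ± 0.725 RPKM with GST-PTR1 (SD, n = 3 each). The fitted log2 difference of 0.16 ± 0.12 (SE, adjusted p = 0.331, edgeR) turned to -0.03 with library totals (adjusted p = 0.873, edgeR). The GST library with the smallest total was the highest of the 6.

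IL10RB, the shared chain, had 248, 320 and 377 counts with GST and 265, 346 and 485 with GST-PTR1. Its levels were 6.41, 6.26 and 6.32 RPKM with GST and 4.55, 4.71 and 4.26 RPKM with GST-PTR1. All GST-PTR1 libraries were below all GST libraries, on library totals and on TMM-scaled totals alike. On library totals 34.4% of all genes tested did so too, and the share on TMM-scaled totals was not computed. The mean was 6.33 ± 0.0745 RPKM with GST and 4.51 ± 0.228 RPKM with GST-PTR1 (SD, n = 3 each), or 5.92 ± 0.0546 and 4.83 ± 0.153 RPKM on TMM-scaled totals. The fitted log2 difference was -0.29 ± 0.11 (SE, adjusted p = 0.0925, edgeR) with TMM factors and -0.49 (adjusted p = 0.0137, edgeR) with library totals, so the call depended on the scaling. Of the exon bases of IL10RB, 22.3% also belong to the annotated readthrough gene IFNAR2-IL10RB, which had 0 counts in all libraries. Reads on those bases were counted for neither gene, so the level of IL10RB is incomplete, while the other 5 genes share 0% of their exon bases on the same strand.

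The ratio of IL10RA to IL10RB per exon length was 2.01, 1.5 and 1.64 with GST and 2.42, 2.34 and 2.29 with GST-PTR1. It was higher in every GST-PTR1 library, by 0.47 on the log2 scale, and this ratio does not depend on the scaling of the libraries (exact two-sided permutation test, p = 0.1). The ratio of IL10 to its receptor gene IL10RA was 0.0414, 0.051 and 0.0332 with GST and 10.8, 13.7 and 18.1 with GST-PTR1. The cytokine transcript went from far below to well above that of its own receptor chain.

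**Figure D2:**
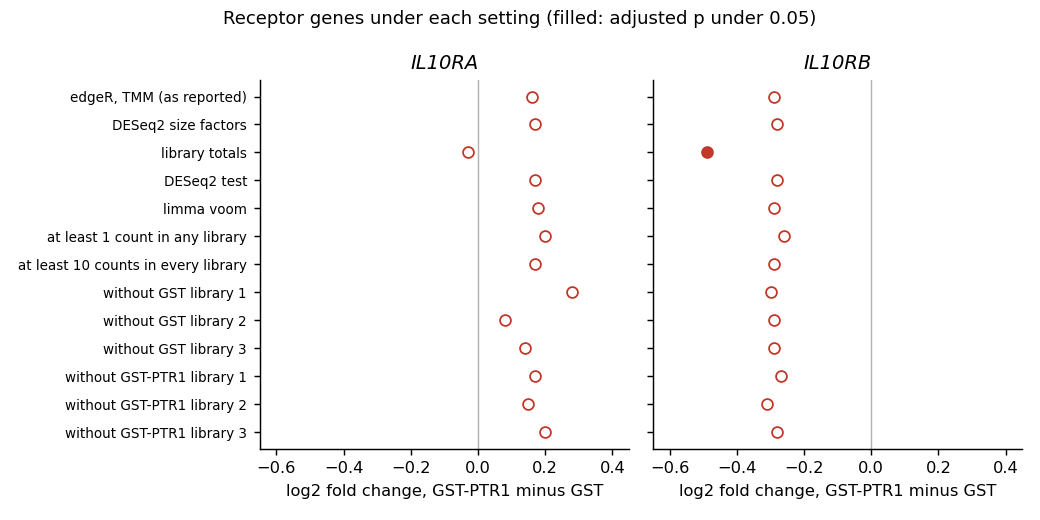
Log2 fold change (GST-PTR1 minus GST) of IL10RA and IL10RB under the reported fit and 12 alternatives, with filled points for an adjusted p under 0.05. IL10RA lies between -0.03 and 0.28 and is never called, and IL10RB lies between -0.49 and -0.26 and is called with library totals only.

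Next to the receptor genes, within 100 kb, IFNAR2 (log2 fold change 0.32, adjusted p = 0.0817, edgeR) and IFNAR1 (0.04, adjusted p = 0.803), the chains of the type I interferon receptor beside IL10RB, did not pass the test. TMPRSS13 and SMIM35 beside IL10RA had log2 fold changes of 0.37 and 0.31 and did not pass it either.

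The genes around the chromosome 1 cluster were compared next. Within 500 kb of either end of the cluster the table lists 32 other genes, 10 of them with 0 counts in all libraries, and 14 were tested. Of these, 5 were higher (3 at least 2-fold) and 0 lower with GST-PTR1 in the edgeR test, against 9.15% and 11.4% of all genes. At an unadjusted p under 0.05, in DESeq2 and in voom 0 were lower as well. The median log2 fold change was 0.33 against 0.01 over all genes tested (0.12 against -0.19 with library totals). In the fit of all genes with a count in any library 1 neighbor, PFKFB2, was called lower, with 18, 11 and 3 counts with GST and 6, 5 and 7 with GST-PTR1.

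FCAMR, which encodes a receptor for the constant parts of IgA and IgM, starts 198.1 kb from IL10. It had 0, 2 and 3 counts with GST and 167, 198 and 268 with GST-PTR1. FCAMR rose by 6.41 ± 0.35 (SE) on the log2 scale (adjusted p = 4.05e-07, edgeR). PIGR, the polymeric immunoglobulin receptor, starts 174.0 kb from IL10 and had 7, 5 and 3 counts with GST and 86, 228 and 219 with GST-PTR1. PIGR rose by 4.59 ± 0.42 (SE) on the same scale (adjusted p = 2.42e-05, edgeR). Neither gene overlapped between treatments, and both means were below 0.1 RPKM with GST (0.0209 ± 0.0185 and 0.0638 ± 0.0385, SD, n = 3). Both passed the filter on their GST-PTR1 counts, so a lower call was hardly possible for them.

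On the other side of IL10, ENSG00000143466, which has no symbol in the tables used, starts at -302.0 kb and rose from 643, 848 and 1105 counts to 2579, 3552 and 4970. This is a log2 difference of 1.59 ± 0.10 (SE, adjusted p = 1.46e-06, edgeR). The remaining calls, ENSG00000136653 (0.40, adjusted p = 0.018, edgeR) and YOD1, a deubiquitinase gene (0.50, adjusted p = 0.0493, edgeR), were lost with library totals (adjusted p = 0.203 and 0.192, edgeR) and held in 7 and 5 of 12 alternatives.

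MAPKAPK2 and FCMR, which flank the cluster, did not pass the test. MAPKAPK2, a kinase acting below p38, starts at -87.5 kb, on the side of IL10 away from IL19, and had a log2 fold change of 0.02 (adjusted p = 0.937, edgeR). FCMR, the IgM Fc receptor gene, starts 150.8 kb from IL10, just beyond IL24, and had a log2 fold change of 0.01 (adjusted p = 0.983, edgeR). Both values turn negative with library totals, at -0.17 and -0.18. FCMR lies between IL24 and PIGR. IL19 and PIGR were called and FCMR between them was not, so the called genes form no unbroken stretch.

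**Figure D3:**
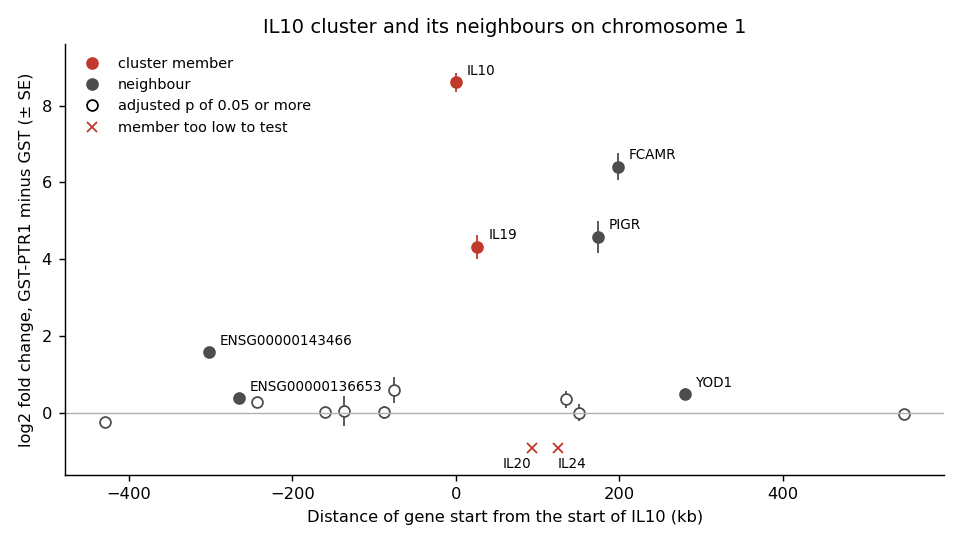
Log2 fold change with its standard error (GST-PTR1 minus GST) for tested genes by the distance of their start from the start of IL10 in kb, with cluster genes in red, neighbors in gray and open symbols for an adjusted p of 0.05 or more. Crosses at the foot of the plot mark the positions of IL20 and IL24, which were not tested, and IL10, IL19, PIGR and FCAMR are high while MAPKAPK2 at -87.5 kb and FCMR at 150.8 kb are near 0.

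The other ligands and receptor chains of the family were mostly near or at 0 counts. Of 10 genes 3 were tested and 2 were higher, a count too small to read against the 9.15% of all genes. IL22 and IL26, and the receptor chains IL20RA and IL22RA2, had 0 counts in all libraries. IL22RA1 had at most 6 counts in any library. IL20RB, the chain that IL-19, IL-20 and IL-24 share, had 29, 35 and 49 counts with GST and 42, 52 and 79 with GST-PTR1, a log2 fold change of 0.11 (adjusted p = 0.733, edgeR) that was -0.09 with library totals. Transcripts of IL20RA and IL22RA1, which pair with IL20RB, were thus at 0 or a few counts in these cells while IL19 rose.

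The type III interferons, which signal through IL10RB, gave the calls. IFNLR1, their specific receptor chain, had 118, 105 and 135 counts with GST and 304, 316 and 427 with GST-PTR1 and rose by 1.05 ± 0.17 (SE) on the log2 scale (adjusted p = 0.00144, edgeR). IFNL1 had 8, 7 and 14 counts with GST and 37, 22 and 72 with GST-PTR1 (1.64 ± 0.38, adjusted p = 0.0121, edgeR), and the call was lost without GST library 2. IFNL2 had 4, 6 and 9 counts with GST and 23, 7 and 30 with GST-PTR1, and IFNL3 had 2, 2 and 2 and then 9, 7 and 15. These last 2 genes are near-identical copies, so their counts are uncertain, and neither passed the filter on low counts. When every gene with at least 1 count was tested, IFNL2 (adjusted p = 0.0419) and IFNL3 (adjusted p = 0.0367) were both called higher by edgeR. Adjusted p-values of that fit are not comparable with the others, and the IFNL2 counts overlapped between treatments.

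The kinases, transcription factors and inhibitors that carry the IL-10 signal were all tested. Of these 12 genes 7 were higher (3 at least 2-fold) and 0 lower in the edgeR test, against 9.15% and 11.4% of all genes. At an unadjusted p under 0.05, in DESeq2 and in voom 0 were lower as well. The median log2 fold change was 0.56 against 0.01 over all genes (0.36 against -0.19 with library totals, where 6 were higher). SOCS3, the inhibitor that STAT3 induces, had 21, 23 and 32 counts with GST and 5539, 5353 and 7457 with GST-PTR1, without overlap. Its rise of 7.44 ± 0.18 (SE) on the log2 scale (adjusted p = 1.09e-09, edgeR) was the largest of the list. SOCS1, a related inhibitor, rose by 3.47 on the same scale. STAT3, the main factor below the IL-10 receptor, was at 7.79 ± 0.851 RPKM with GST and 21.0 ± 1.94 RPKM with GST-PTR1 (SD, n = 3 each), and rose by 1.62 ± 0.11 (SE) on the log2 scale (adjusted p = 1.46e-06, edgeR).

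STAT5A (0.94), the phosphatase gene PTPN2 (0.63) and the kinase gene TYK2 (0.49, adjusted p = 0.0197, edgeR) were among the other increases, and the call on TYK2 was lost with library totals (0.29, adjusted p = 0.149). JAK1, the kinase bound to IL10RA, had a log2 fold change of 0.08 (adjusted p = 0.594, edgeR). The values of STAT5B, PIAS3 and BTRC, the last a part of the ligase that turns over IL10RA, were -0.12, -0.18 and -0.27 and did not pass the test.

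Genes known to be induced by IL-10 in macrophages and other cells were counted from a list of 20, of which 15 were tested. Of these 12 were higher (9 at least 2-fold) and 1 lower, against 9.15% and 11.4% of all genes. The median log2 fold change was 1.17 against 0.01 over all genes (0.98 against -0.19 with library totals, where 8 were higher). IL1RN and FCGR1A had at most 8 counts in any GST library. They passed the filter on GST-PTR1 counts, so a lower call was hardly possible for them. With at least 10 counts in every library, 10 genes of the list were higher and 1 lower. Beside SOCS3, the largest increases were those of IL1RN, the IL-1 receptor antagonist, with 2, 2 and 4 counts with GST and 51, 69 and 115 with GST-PTR1 (log2 fold change 4.30), and of BCL3, an atypical IκB protein (3.21). PIM1 (2.23), ZFP36, which promotes decay of cytokine mRNAs (1.89), SBNO2 (1.36), MCL1 (1.17) and ETV3 (1.14) also rose. HMOX1, heme oxygenase, fell by 1.00 on the log2 scale (adjusted p = 0.00564, edgeR), from 22.1 ± 3.3 to 9.62 ± 2.45 RPKM (SD, n = 3 each). NFIL3 had a log2 fold change of -0.13 and DDIT4 of 0.48, neither past the test, and the macrophage receptor CD163 had 0 counts in all libraries.

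A list of genes that IL-10 represses in activated myeloid cells did not fall. Of its 24 genes 16 were tested, and 15 were higher (15 at least 2-fold) and 0 lower in the edgeR test. Over all genes, 9.15% were higher (3.68% at least 2-fold) and 11.4% lower. In the list 0 were lower also at an unadjusted p under 0.05, in DESeq2 and in voom. IL12A was not called (0.63, adjusted p = 0.0902, edgeR). IL6, CSF3, PTGS2, CXCL1 and CXCL2 had at most 3 counts in any GST library. They passed the filter on GST-PTR1 counts, so a lower call was hardly possible for them. With at least 10 counts in every library, 8 genes of the list were called higher. The median log2 fold change was 4.60 against 0.01 over all genes, and 4.40 against -0.19 with library totals. It was 4.17 with the tested genes at 0 counts in GST set to their lower bounds. CXCL8, a neutrophil chemokine, had 32, 80 and 79 counts with GST and 5030, 7597 and 15935 with GST-PTR1 (log2 fold change 6.65). IL6, a myeloma growth factor, had 0, 0 and 2 counts with GST and 68, 162 and 277 with GST-PTR1 (7.20). TNF (4.59), PTGS2 (6.56), CXCL10 (4.93) and IL12B, the p40 chain of IL-12 (4.18), rose as well. The chemokines CXCL1 and CXCL2 had 0 counts in the GST libraries and were at least 16.2-fold and 17.9-fold higher with GST-PTR1, against 3 counts over the GST libraries. CSF2, not tested, was at least 13-fold higher on the same basis. IFNG had 0 counts in all libraries, and times other than 6 hr were not measured.

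**Figure D4:**
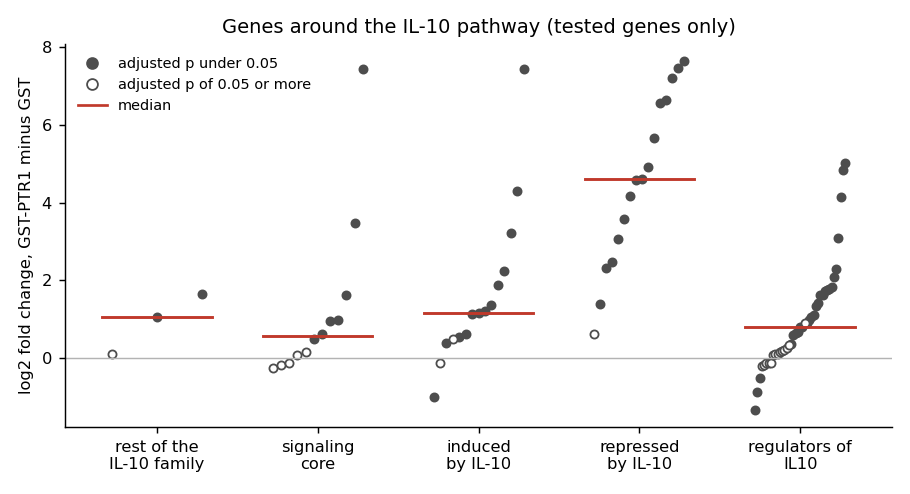
Log2 fold change (GST-PTR1 minus GST) of each tested gene in 5 lists around the IL-10 pathway, with filled points for an adjusted p under 0.05 and a red line at the median of the list. Genes known to be repressed by IL-10 lie highest (median 4.60), and the points of CXCL1 and CXCL2 near the top of that list are fitted values of genes with 0 counts in GST.

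Transcription factors known to act on IL10 in some cell type were taken as a list of 42, of which 41 were tested. With GST-PTR1, 24 were higher (16 at least 2-fold) and 3 lower in the edgeR test, against 9.15% and 11.4% of all genes. The median log2 fold change was 0.79 against 0.01 over all genes (0.59 against -0.19 with library totals, where 20 were higher). EGR2 and BATF3 had at most 6 counts in any GST library and passed the filter on GST-PTR1 counts. A lower call was hardly possible for them. With at least 10 counts in every library, 21 genes of the list were higher and 2 lower. Among AP-1 family genes, BATF was at 6.02 ± 0.875 RPKM with GST and 152 ± 19.4 RPKM with GST-PTR1 (log2 fold change 4.85), and JUNB at 25.4 ± 4.11 and 190 ± 22.1 RPKM (3.10, SD, n = 3 each). CEBPD rose most, from 9, 8 and 12 counts to 298, 395 and 681 (5.01). Of the NF-κB subunit genes, RELB (2.28), NFKB2 (2.09) and NFKB1 (1.84) rose at least 2-fold, while the smaller increases of REL (0.66) and RELA (0.35) were not called with library totals (adjusted p = 0.089 and 0.399, edgeR).

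PRDM1, the plasma cell factor Blimp-1, rose by 1.35 on the log2 scale. MAF, a main activator of IL10 in T cells and macrophages, was abundant and fell by 0.52 (adjusted p = 0.0418, edgeR), from 97.0 ± 19.3 to 59.3 ± 12.8 RPKM (SD, n = 3 each). EGR1, an immediate early factor, was lower as well (-1.34). Calls on MAF and EGR1 were both lost without GST library 1, GST library 3, GST-PTR1 library 2 or GST-PTR1 library 3, and 1 gene of the list was lower in those fits. IRF4 was higher (0.65), and SP1 (-0.12), a basal factor of the IL10 promoter, did not pass the test.

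The genes whose pattern over the 6 libraries was closest to that of IL10 were found by the root mean square difference of log2 CPM after each gene was centered on its own mean. These were CXCR5 (0.54), a chemokine receptor of B cells, SOCS3 (0.67), MIR155HG (0.74), the host gene of miR-155, ELF3 (0.78) and CFB (0.89), complement factor B. CXCR5 was at 1.47, 1.28 and 1.83 RPKM with GST and 231, 276 and 260 RPKM with GST-PTR1. MIR155HG was at 0.452, 0.498 and 0.4 RPKM with GST and 57.9, 53.3 and 57.8 RPKM with GST-PTR1. The same 5 genes came first with library totals. IL19, although next to IL10 in the genome, ranked 56 by this measure (2.14). The measure mostly follows the size of the treatment difference, on the log2 scale 8.60 for IL10, 7.58 for CXCR5 and 4.33 for IL19. The rank therefore cannot show whether IL19 followed IL10 among the libraries of a treatment.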

How the data were processed

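RNA was isolated from RPMI8226 cells after 6 hr with 100 nM GST-PTR1 or 100 nM GST. The table that the authors deposited holds raw read counts by gene and each gene's exon length. It was made with featureCounts 1.5.0-p1 (strand option 2) on GRCh37 with Ensembl gene models of release 75. Reads that mapped to several places or lay on several genes of 1 strand were left out, and the aligner is not given in the sources used here. Nothing was normalized. Gene names were matched by identifier for 39699 genes, and CCL3, CCL4, CCL5, CCL18 and TRAC were not matched on primary chromosomes.

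Libraries were assigned to treatments by column name and numbered by total, since column numbers and sample replicate numbers differ. Pairs of libraries within a treatment differed by more than sampling noise (chi-square per gene at least 8.31), so all 6 were counted. RPKM was computed from counts, library totals and exon lengths, and fold changes come from the TMM fit, which gives larger increases than a ratio of RPKM means.

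Treatments were compared in R 4.3.3 with edgeR 4.0.16 (TMM, filterByExpr, glmQLFit, glmQLFTest, no block) with Benjamini-Hochberg adjustment over all genes tested. This was first tested on simulated data. A gene with few counts with GST could pass the filter on GST-PTR1 counts alone, and could then hardly be called lower. Single values had exact permutation tests, and intervals and the limit of 3 counts cover counting error only. The alternatives were library totals or DESeq2's size factors, DESeq2 1.42.0 or limma 3.58.1 (voom), other filters on low counts, other windows, a threshold of 2-fold and leaving out each library. A replicate block over the 4 libraries that share column numbers was added after seeing the data. Named were the 6 members, genes of the lists, genes within 500 kb of the cluster or 100 kb of a receptor gene, and the 5 genes most like IL10 (log2 CPM, prior count 2). The members and lists were chosen with earlier results of these data known, and the lists were written from general knowledge. Values of some single genes of the lists are not reported here. Promoter windows and their sequences are from RefSeq on GRCh38.p14, and coordinates were not converted between builds. Python 3.11.15, pandas 2.3.3, scipy 1.17.1 and matplotlib 3.10.9 were used.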

Additional observations from a re-analysis of the deposited data

How the results depend on the processing

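IL10 (log2 fold change 8.39 to 8.76) and IL19 (3.98 to 4.58) were called higher in 12 of 12 alternatives. IL10RA ranged from -0.03 to 0.28 and was called in 0 of 12. IL10RB ranged from -0.49 to -0.26 and was called in 1 of 12. With library totals IL10RA changed sign (-0.03), IL10RB was called (-0.49), so 1 of the 6 genes was lower, and 3 neighbors of the cluster were called higher in place of 5. With at least 10 counts in every library, 2 neighbors, 1 other family gene and 8 genes repressed by IL-10 were called higher. Fewer genes were then tested, PIGR and FCAMR not among them. YOD1, ENSG00000136653 and ENSG00000143466 were still tested, so not every call lost among neighbors came from the filter. With at least 1 count in any library, 4 other family genes were higher and 1 neighbor lower. At 2-fold, 3 neighbors and 3 signaling genes were higher, 0 genes induced by IL-10 lower and 1 regulator of IL10 lower.

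Leaving out each library gave 3 to 4 neighbors higher and 0 to 1 lower, 1 to 3 other family genes higher and 1 to 3 regulators lower. Neighbors higher fell to 3 without GST library 3, GST-PTR1 library 1 or GST-PTR1 library 2, and PFKFB2 was the neighbor called lower without GST library 3. The cause of these shifts was not tested. The labels tie no column to a numbered sample, but 2 column numbers occur in both treatments. In a fit chosen after seeing the data, of those 4 libraries with the number as a block (1 residual degree of freedom), 3 neighbors were higher, against 4 without the block. IL10 (8.86) and IL19 (4.55) stayed called higher with the block, and IL10RA (0.28) and IL10RB (-0.28) were not called. The deviations of same-numbered libraries had a correlation of -0.03 across genes. This value rests on 4 libraries, so it cannot show whether same-numbered libraries were paired. IL20 and IL24 did not reach the filter on low counts, and 3 libraries against 3 cannot go below p = 0.1 in a permutation test.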
